A study of Mus musculus with 2 samples.

Results

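Replication protein A is the complex that coats single-stranded DNA in eukaryotic cells. It is described here through the 3 genes of its subunits, Rpa1, Rpa2 and Rpa3, out of 32285 genes listed in the count matrices of day 2.5 mouse gastruloids. The genes were taken by symbol, and Rpa3 was already known from these data to differ between the libraries, so every difference between libraries below is a description and carries no test. All 3 genes passed the minimum used for comparisons with other genes, a mean level of at least 10 CPM (UMI counts scaled to the same total in each library), which 7607 genes passed.

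Gastruloids are aggregates of embryonic stem cells that begin axial patterning in culture. Aggregates of about 300 cells of the mouse embryonic stem cell line R1 were grown in serum-free N2B27 medium. One set was wild type (WT, labelled control) and the other was labelled as a knockout of Sp5 and of Sp8, which encode transcription factors (Sp5/8 dko, double knockout, here dko, labelled mutant). Both sets received 3 µM CHIR, an inhibitor of GSK3 that activates Wnt signalling, for 12 hours and were collected at day 2.5. Aggregates were pooled before dissociation and each genotype gave 1 single-cell library, so no difference has a replicate check. The labels do not say from how many knockout clones the cells came.

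Barcodes were kept with at least 2500 UMIs (molecular tags that count each captured molecule once), at least 1000 genes and at most 10% mitochondrial UMIs. The WT label covered 8707 cells with 97157331 UMIs and the dko label 10587 cells with 97644169 UMIs. Median depths were 10571 and 8637 UMIs per cell. The libraries shared 27 cell barcodes, 0.310% and 0.255% of their cells. Sp5, one of the targeted genes, stood at 109.1 CPM in the library labelled WT and at 478.7 CPM in the library labelled dko, and Sp8 at 20.8 and 40.1 CPM. Both were higher under the dko label, where a loss of transcript would give lower levels. Whether the altered alleles are still transcribed or the labels are exchanged was not tested. Directions below are therefore those between 2 labels, and no effect of losing either gene can be read from them.

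The complex protects single-stranded DNA at replication forks and during repair. Rpa1, the large subunit, carries most of the DNA-binding domains. Rpa2, the middle subunit, is phosphorylated when DNA is damaged. Rpa3, the small subunit, completes the core that holds the trimer together. DNA coated by the complex recruits the checkpoint kinase ATR through its partners ATRIP and ETAA1. Embryonic stem cells divide rapidly and spend much of their cycle copying DNA, and they express replication genes strongly.

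In GENCODE M21 on GRCm38, the assembly also called mm10 in the submitters' processing notes, Rpa1 (ENSMUSG00000000751) lies on the minus strand of chromosome 11 from 75298166 to 75348324. Rpa2 (ENSMUSG00000028884) spans 132768332 to 132778752 of chromosome 4, plus strand. Rpa3 (ENSMUSG00000012483) lies on the minus strand of chromosome 6 from 8255936 to 8259173. All 3 are protein-coding, and their longest exon sets hold 18, 9 and 4 exons. No other listed feature overlapped any of them. Rpa3 starts 115 bases from Umad1, which runs the opposite way, and Rpa1 starts 109 bases from Smyd4, which also runs the opposite way. Among GENCODE transcripts, 1 other gene aligned to Rpa3 over at least 90 bases at 90% identity or more. It was the processed pseudogene Gm6195 on chromosome 1 (9802197 to 9802553), at 93.973% identity over 365 bases, and it is not among the listed features. How the counting treated reads that match both is not given in the sources used here. No such copy was found for Rpa1 or Rpa2.

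The stretches of DNA before each gene are shown because Rpa3 and Rpa1 share theirs with a divergent neighbour, whose level can then be set beside that of the subunit. Each line gives the part of the RefSeq promoter window (GRCm38.p6) that lies outside annotated exons and before the RefSeq start, 5′ to 3′ on the strand of the gene. The printed parts are chr6:8259174-8259287 on the minus strand for Rpa3, chr11:75348384-75348432 on the minus strand for Rpa1 and chr4:132768110-132768331 on the plus strand for Rpa2. Capitals mark matches on either strand to the GC box GGGCGG (reverse CCGCCC), which Sp-family proteins bind, to the CCAAT box CCAAT (reverse ATTGG), which NF-Y binds, and to the E2F-type letters GCGGGAA (reverse TTCCCGC). No 2 matches of different motifs overlap here.
Rpa3: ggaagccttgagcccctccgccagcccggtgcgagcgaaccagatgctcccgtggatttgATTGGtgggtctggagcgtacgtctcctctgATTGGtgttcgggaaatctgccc
Rpa1: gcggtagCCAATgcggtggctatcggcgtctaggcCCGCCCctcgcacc
Rpa2: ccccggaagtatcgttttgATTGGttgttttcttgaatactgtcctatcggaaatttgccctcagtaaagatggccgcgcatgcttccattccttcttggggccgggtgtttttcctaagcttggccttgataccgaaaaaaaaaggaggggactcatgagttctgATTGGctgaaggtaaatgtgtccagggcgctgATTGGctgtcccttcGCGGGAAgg

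In the full windows of 300 bases (250 before and 50 after the start), the GC box letters occurred 2 times for Rpa3, 4 times for Rpa1 and 0 times for Rpa2. The CCAAT letters occurred 2, 2 and 3 times in the same order. The E2F-type letters were found in the window of Rpa2 only, 1 time. Of all 32851 windows of this length, 35.7% held the GC box letters, 37.4% the CCAAT letters and 4.60% the E2F-type letters. These matches are a description of letters and not of binding.

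Rpa3 was the subunit that differed between the libraries. The WT label gave 10352 UMIs and a level of 106.5 CPM (95% counting interval 104.5 to 108.6). The dko label gave 6100 UMIs and a level of 62.5 CPM (60.9 to 64.1), which is 1.71-fold lower. On the log2 scale the ratio of dko over WT was -0.77 (-0.82 to -0.72), number 8 from the lowest of 7607 genes.

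Rpa1 and Rpa2 lay close together in the libraries. Rpa1 had 93.3 CPM (91.3 to 95.2) under the WT label and 96.9 CPM (94.9 to 98.8) under the dko label, a log2 ratio of 0.05 (0.01 to 0.10). Rpa2 had 45.9 CPM (44.6 to 47.3) and 46.9 CPM (45.6 to 48.3), a log2 ratio of 0.03 (-0.03 to 0.09). Over all genes tested the median log2 ratio was -0.02 with an SD across genes of 0.16. Of the subunits, 1 of 3 had a log2 ratio of 0.25 or more in size, where 7.8% of all genes did (4.67% lower and 3.13% higher). Nothing is read from this count, because the same contrast chose the genes. At a minimum mean CPM of 1, 14.6% of genes differed by that much (8.89% lower and 5.7% higher), and with no minimum 40.5% did (22.2% lower and 18.3% higher). Intervals here and below cover counting error only and say nothing of variation between cultures. How many of all genes have intervals apart or off 0 was not counted, in all cells or in groups of cells.

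The number of Rpa3 UMIs per UMI of another subunit does not depend on scaling to library size. There were 1.14 Rpa3 UMIs per Rpa1 UMI under the WT label and 0.645 under the dko label, a log2 change of -0.83 (-0.89 to -0.76). Against Rpa2 the number of Rpa3 UMIs changed by -0.80 (-0.88 to -0.73) on the log2 scale. The ratio of Rpa2 to Rpa1 UMIs was 0.492 and 0.485, a log2 change of -0.02 (-0.10 to 0.05).

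**Figure D1:**
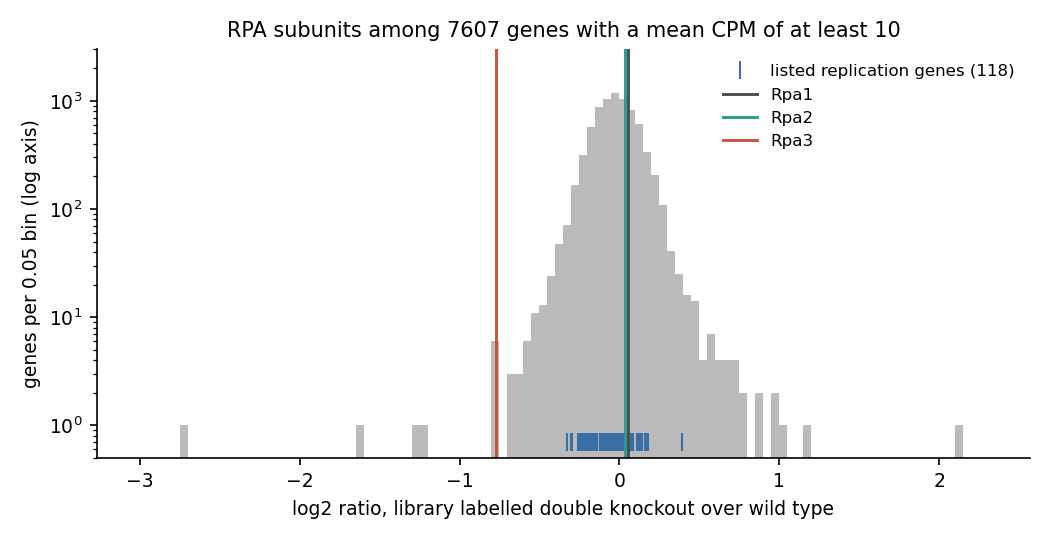
Histogram of the log2 ratio between the libraries for the 7607 genes passing the minimum of 10 CPM (x axis: log2 ratio, y axis: genes per bin on a log axis), with vertical lines for the subunits and ticks for 118 listed replication genes. The Rpa3 line at -0.77 lies left of every tick, while the Rpa1 and Rpa2 lines at 0.05 and 0.03 lie near the peak.

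At the level of single cells the difference in Rpa3 appeared as fewer cells with a UMI. After each cell was thinned to 2500 UMIs, which every kept cell reached, an Rpa3 UMI was found in 23.5% of WT-labelled cells (22.6 to 24.4) and 14.6% of dko-labelled cells (13.9 to 15.2). With all UMIs the shares were 66.1% and 42.8%. Rpa1 was found in 20.5% (19.7 to 21.4) and 21.1% (20.4 to 21.9) of thinned cells, and Rpa2 in 11.2% (10.5 to 11.9) and 11.5% (10.9 to 12.1). The intervals of the libraries were apart for Rpa3 and overlapped for Rpa1 and Rpa2. The share of all genes with intervals apart was not counted, so nothing is read from this. Without thinning, the shares were 60.4% and 56.7% for Rpa1 and 38.6% and 34.0% for Rpa2, beside the median depths of 10571 and 8637 UMIs.

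The variance of thinned Rpa3 UMIs over cells was 1.01 times the mean in each library, close to the value of 1 that counting alone gives. The means were 0.270 and 0.158 UMIs per cell under the WT and dko labels. At means this low the value stays near 1 even where cells differ, so it does not show that they are alike. With all UMIs the variance was 1.19 and 1.07 times the mean. Cells with 2 Rpa3 UMIs made up 2.84% and 1.14% of thinned cells, and cells with 3 or more made up 0.287% and 0.057%. No cell type that lacks the complex was available as a background for these shares. Barcodes with at most 100 UMIs, which hold mostly free RNA, had Rpa3 at 143.3 CPM (133.2 to 153.9) and 84.6 CPM (75.5 to 94.5) under the WT and dko labels, a log2 ratio of -0.76 (-0.95 to -0.57). In the same barcodes the log2 ratio was -0.06 (-0.27 to 0.14) for Rpa1 and 0.18 (-0.10 to 0.46) for Rpa2.

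**Figure D2:**
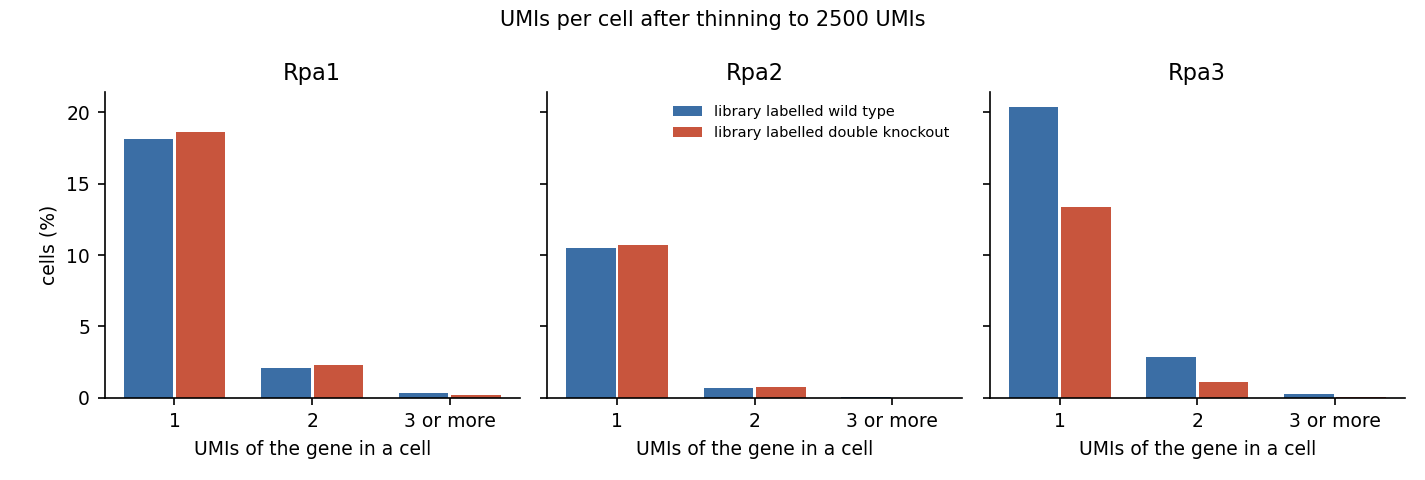
Share of cells (y axis, percent) with 1, 2 and 3 or more UMIs (x axis) of each subunit after thinning every cell to 2500 UMIs, with 1 bar per library. The bars of the libraries differ for Rpa3, with 23.5% and 14.6% of cells having any UMI, and are nearly level for Rpa1 and Rpa2.

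Whether the difference followed replication activity was examined by sorting cells on the share of their UMIs from Mcm2 to Mcm7, the genes of the helicase that opens DNA at forks. Their transcripts are known to build up from late G1 into S phase. Cells of both libraries were pooled and cut into 3 classes of equal size, at 0.0917% and 0.129% of UMIs. The Mcm-high class held 2794 and 3638 cells and the Mcm-low class 2897 and 3535 cells of the libraries labelled WT and dko. These classes are ranges of a score and not cell types: 1944 cells lay within 5% of the upper limit and 1610 within 5% of the lower one. The score rests on few UMIs per cell, 108193 and 110548 helicase UMIs over 8707 and 10587 cells. Counting error therefore also moves cells between classes, here and in the finer groups below, by an amount that was not measured. Under the WT label, the median share of UMIs from listed S phase genes outside the helicase was 0.405% in Mcm-high and 0.300% in Mcm-low cells, and that of listed G2/M genes was 0.232% and 0.370%. Under the dko label these medians were 0.368% and 0.282%, and 0.243% and 0.361%.

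Rpa1 and Rpa2 were higher in Mcm-high than in Mcm-low cells of both libraries. Under the WT label Rpa1 stood at 105.2 and 80.8 CPM, a log2 ratio of high over low of 0.38 (0.30 to 0.46). Under the dko label it stood at 105.9 and 86.6 CPM, a log2 ratio of 0.29 (0.22 to 0.36). Rpa2 stood at 55.3 and 38.9 CPM in the first library, a log2 ratio of 0.51 (0.40 to 0.62), and at 54.0 and 40.0 CPM in the second, a log2 ratio of 0.43 (0.33 to 0.54). The helicase genes summed, which defined the classes, had log2 ratios of 1.204 and 1.246. Mcm-high cells were shallower than Mcm-low cells, with median depths of 9960.5 and 10926 UMIs under the WT label. Under the dko label these depths were 8224.5 and 8842 UMIs. The part of depth in the ratios of high over low was not tested.

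Rpa3 moved less along the same axis. It stood at 110.2 CPM in Mcm-high and 101.3 CPM in Mcm-low cells of the library labelled WT, a log2 ratio of 0.12 (0.05 to 0.19). Under the dko label it stood at 65.9 and 61.0 CPM, a log2 ratio of 0.11 (0.02 to 0.20). In both libraries the intervals of Rpa3 lay below those of Rpa1 and Rpa2.

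Between the libraries, Rpa3 was lower in both classes. The log2 ratio of dko over WT was -0.74 (-0.82 to -0.66) in Mcm-high and -0.73 (-0.81 to -0.65) in Mcm-low cells. These 2 values differed by -0.01 (-0.12 to 0.10), so a difference between these 2 classes was not detectable at this depth. Because counting error mixes the classes, this does not show that the Rpa3 difference is independent of replication activity. In the middle class, which this contrast leaves out, the Rpa3 ratio was -0.84 (-0.92 to -0.76). For Rpa1 the ratios were 0.01 (-0.06 to 0.08) and 0.10 (0.02 to 0.18), and for Rpa2 -0.04 (-0.13 to 0.06) and 0.04 (-0.07 to 0.16). Of all genes, 10.5% differed by 0.25 or more in Mcm-high cells (6.09% lower and 4.43% higher) and 10.1% in Mcm-low cells (6.6% lower and 3.48% higher).

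With the cells cut into 10 groups of equal size, Rpa3 ranged from 99.97 to 113.5 CPM under the WT label and from 58.8 to 65.9 CPM under the dko label. The ranges did not overlap, and the interval of the log2 ratio lay below 0 in 10 of 10 groups, with ratios from -0.87 to -0.68. Rpa1 ranged from 74.8 to 110.1 CPM and from 78.8 to 109.2 CPM, and Rpa2 from 35.9 to 61.6 CPM and from 37.9 to 59.5 CPM. The highest group was 1.14-fold above the lowest for Rpa3 in the library labelled WT, against 1.47-fold for Rpa1 and 1.72-fold for Rpa2.

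**Figure D3:**
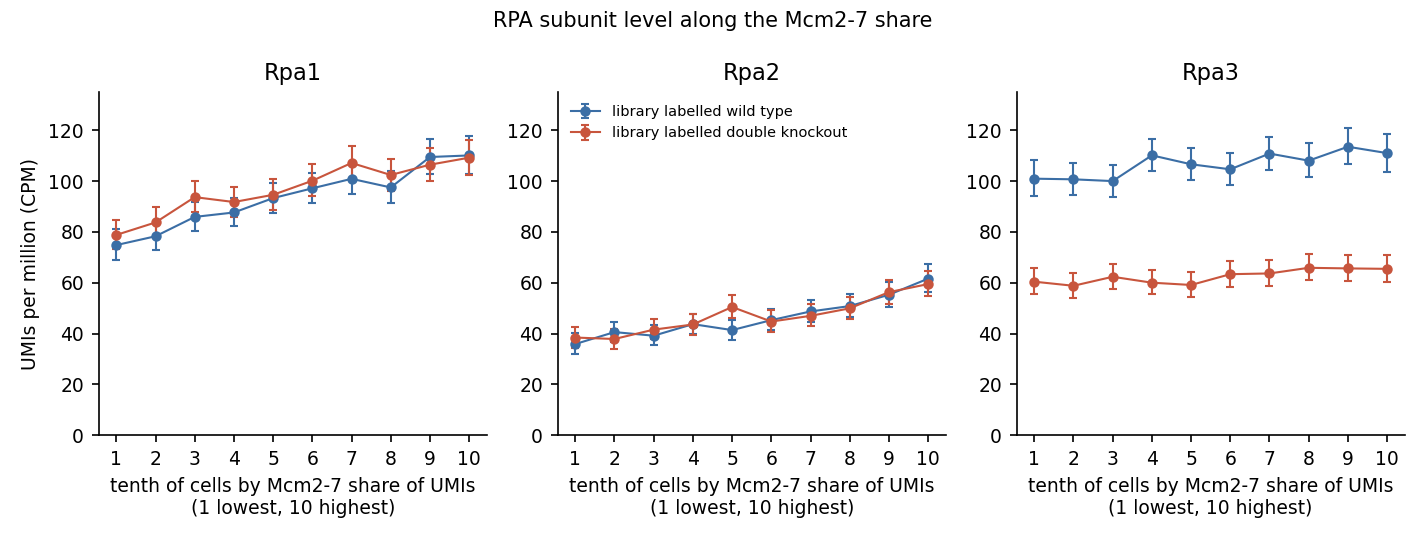
Level of each subunit (y axis, CPM, with 95% counting intervals) in 10 groups of cells ordered by the share of UMIs from Mcm2 to Mcm7 (x axis, 1 lowest and 10 highest), 1 line per library. The Rpa1 and Rpa2 lines climb together in both libraries, while the Rpa3 lines run nearly flat and apart, at 99.97 to 113.5 CPM and 58.8 to 65.9 CPM.

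Cell cycle scores that left out the subunits and the helicase gave a like difference in Rpa3 between the libraries in S and G2/M cells. In cells with the higher S phase score Rpa3 stood at 115.7 and 68.9 CPM, a log2 ratio between libraries of -0.75 (-0.83 to -0.67). In cells with the higher G2/M score it stood at 102.4 and 59.8 CPM, a log2 ratio of -0.78 (-0.83 to -0.72). The few cells scored as G1, 127 and 144, held 55 and 39 Rpa3 UMIs, and the log2 ratio of -0.44 (-1.08 to 0.17) held 0 in its interval. Between cells with S and G2/M scores of the library labelled WT, Rpa2 differed by 0.59 (0.50 to 0.68), Rpa1 by 0.36 (0.30 to 0.42) and Rpa3 by 0.18 (0.12 to 0.23) on the log2 scale. Under the dko label these differences were 0.53 (0.44 to 0.61), 0.27 (0.21 to 0.33) and 0.21 (0.13 to 0.28). The intervals of Rpa3 and Rpa1 overlapped there, unlike those between Mcm classes.

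Cells were then grouped by expression state, using clusters made without the subunits, the listed replication genes and the cell cycle genes. Of 8 clusters, 6 had at least 100 cells in each library. Cluster 0, led by Gsc, Mixl1 and Eomes with 6 of 11 streak markers at least 1.5-fold higher than in other cells, was called primitive streak-like. Cluster 2, led by Dppa3 and Dnmt3l with 4 of 10 naive markers at that level, was called naive pluripotent-like. Cluster 1 (led by Irx3 and Irx5), cluster 3 (led by Nfib and Cdx2), cluster 4 (led by Rps26, with median depths of 3675 and 3226 UMIs) and cluster 5 (led by Ppp1r17 and Nhlh1, with 7 of 8 neural markers at that level) stayed unnamed. Cluster 0 held 21.0% of WT-labelled and 48.1% of dko-labelled cells. In the same order cluster 1 held 41.6% and 26.7%, cluster 2 13.6% and 14.0%, and cluster 3 17.1% and 5.05%. Ratios in all cells therefore mix clusters in unlike shares.

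Rpa3 was lower in the library labelled dko in each of these 6 clusters, and 6 of 6 intervals lay below 0. In cluster 0 it stood at 114.4 and 64.0 CPM, a log2 ratio of -0.84 (-0.91 to -0.76). In cluster 1, where the ratio was lowest, it stood at 113.7 and 61.7 CPM, a log2 ratio of -0.88 (-0.97 to -0.80). In cluster 2 it stood at 109.1 and 63.0 CPM (-0.79, -0.91 to -0.67). Within each library the intervals of the levels in clusters 0, 1 and 2 overlapped.

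The remaining clusters had fewer UMIs and wider intervals. In cluster 3 Rpa3 stood at 76.8 and 47.9 CPM (-0.68, -0.90 to -0.47), the lowest level of the 6 clusters under both labels. In cluster 4 it stood at 124.6 and 87.6 CPM (-0.51, -0.87 to -0.15), the highest level under both labels. In cluster 5 it stood at 83.0 and 55.9 CPM (-0.57, -0.97 to -0.18). The intervals of clusters 3 and 5 overlapped in each library, and that of cluster 4 overlapped those of clusters 0 to 2 under the WT label but lay above them under the dko label. The highest cluster stood 1.62-fold above the lowest under the WT label and 1.83-fold under the dko label.

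Rpa1 had log2 ratios from -0.11 to 0.28 in the same clusters, with an interval off 0 in 0 of 6. Rpa2 had ratios from -0.08 to 0.24. Its interval lay above 0 in cluster 3 only, where Rpa2 stood at 47.9 and 55.9 CPM (0.23, 0.01 to 0.43). When the clusters were also divided by Mcm class, 9 groups had at least 100 cells in each library. Rpa3 was lower in 9 of 9, with intervals below 0 and ratios from -0.87 to -0.54. Among groups with fewer cells, the interval held 0 in Mcm-high cells of cluster 4 (60 and 73 cells; -0.21, -1.01 to 0.58) and Mcm-low cells of cluster 5 (110 and 94 cells; -0.12, -0.77 to 0.49). In the naive pluripotent-like cluster the Rpa3 ratio was -0.75 (-0.96 to -0.55) in Mcm-high and -0.73 (-0.96 to -0.50) in Mcm-low cells.

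**Figure D4:**
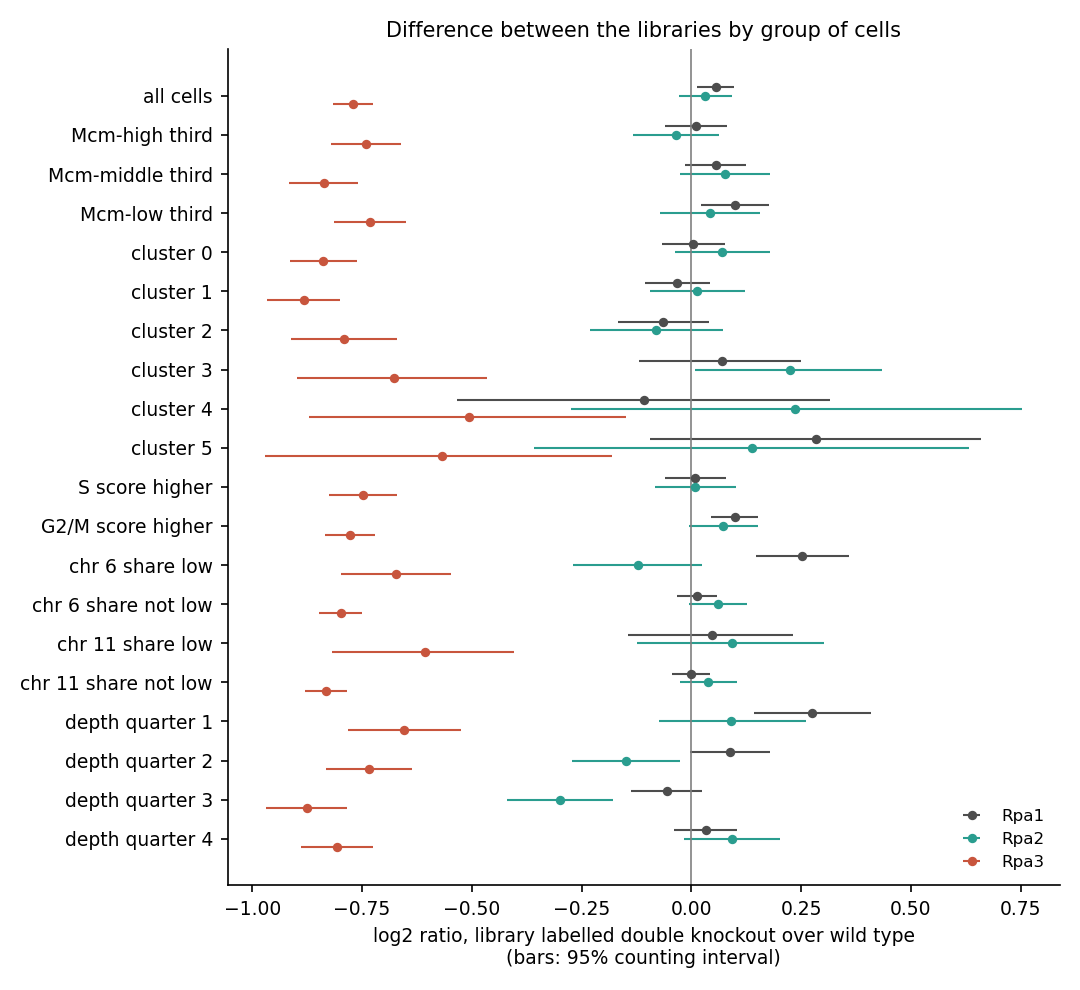
Log2 ratio of each subunit between the libraries (x axis, with 95% counting intervals) in all cells and in groups of cells by Mcm class, cluster, S or G2/M score, chromosome share and depth (y axis); the few cells scored as G1 are not plotted. The plotted Rpa3 points lie between -0.88 and -0.51, each left of the Rpa1 and Rpa2 points of its group, which run from -0.30 to 0.28.

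Rpa3 and Rpa1 lie on chromosomes 6 and 11, and these cultures hold cells with a low share of UMIs from one or both of those chromosomes. Shares were taken over genes above the minimum level without the subunits, in cells with at least 4000 UMIs, and called low at or under 0.8 times the median. Chromosome 6 was low in 21.2% of WT-labelled cells (20.4 to 22.1) and 18.2% of dko-labelled cells (17.5 to 19.0). Chromosome 11 was low in 17.8% (17.0 to 18.7) and 5.86% (5.41 to 6.33). Chromosome 4, which carries Rpa2, was low in 0.130% and 0.137%.

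Rpa3 was lower in cells low on chromosome 6. In cells low on chromosome 6 but not on chromosome 11 it stood at 80.4 CPM against 115.0 CPM in cells low on neither under the WT label, 70.0% of the level. Under the dko label it stood at 49.1 against 65.6 CPM, 74.9% of the level. Cells low on chromosome 11 alone also had less Rpa3, at 77.7 CPM (67.7% of the level) and 55.2 CPM (84.4% of the level). Rpa1 stood at 71.6 and 67.0 CPM in cells low on chromosome 11 alone, 72.5% and 67.3% of the 98.96 and 99.9 CPM in cells low on neither. In cells low on chromosome 6 alone Rpa1 stood at 95.8 and 92.1 CPM.

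The difference between the libraries in Rpa3 was present with and without these cells. In cells low on neither chromosome the log2 ratio was -0.81 (-0.86 to -0.76). It was -0.67 (-0.80 to -0.55) in all cells low on chromosome 6 and -0.80 (-0.85 to -0.75) in the others. For Rpa1 the ratio in cells not low on chromosome 11 was -0.001 (-0.04 to 0.04), against 0.05 (0.01 to 0.10) in all cells. In cluster 3, 91.1% of cells were low on chromosome 11 and 69.1% on chromosome 6, and the part of this in its low Rpa3 and Rpa1 levels was not tested.

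Of the genes compared around Rpa3, none had a ratio as low. Few genes anywhere could, since Rpa3 was number 8 from the lowest of 7607 genes. Umad1, which starts 115 bases away on the other strand, had 184 and 160 UMIs (1.89 and 1.64 CPM) and a log2 ratio of -0.21 (-0.52 to 0.10). The 10 nearest genes above the minimum level, 5 on each side, started 0.25 to 4.8 Mb from the Rpa3 start. They had a median log2 ratio of -0.03, with 0 lower and 1 higher by 0.25 or more. The higher one was Asns, the asparagine synthetase gene, at 98.0 and 151.9 CPM (0.63, 0.59 to 0.67). The lowest was C1galt1, a glycosyltransferase gene, at 15.4 and 13.3 CPM (-0.21, -0.32 to -0.10). On all of chromosome 6, 376 other genes had a median of -0.02, and 12 of them, 3.19%, were lower by 0.25 or more.

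The neighbours of the other subunits lay near 0 as well. Smyd4, which starts 109 bases from Rpa1, stood at 12.7 and 13.2 CPM, a log2 ratio of 0.05 (-0.06 to 0.17). The 10 genes nearest to Rpa1 ran from -0.13 to 0.18 and those nearest to Rpa2 from -0.14 to 0.09.

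**Figure D5:**
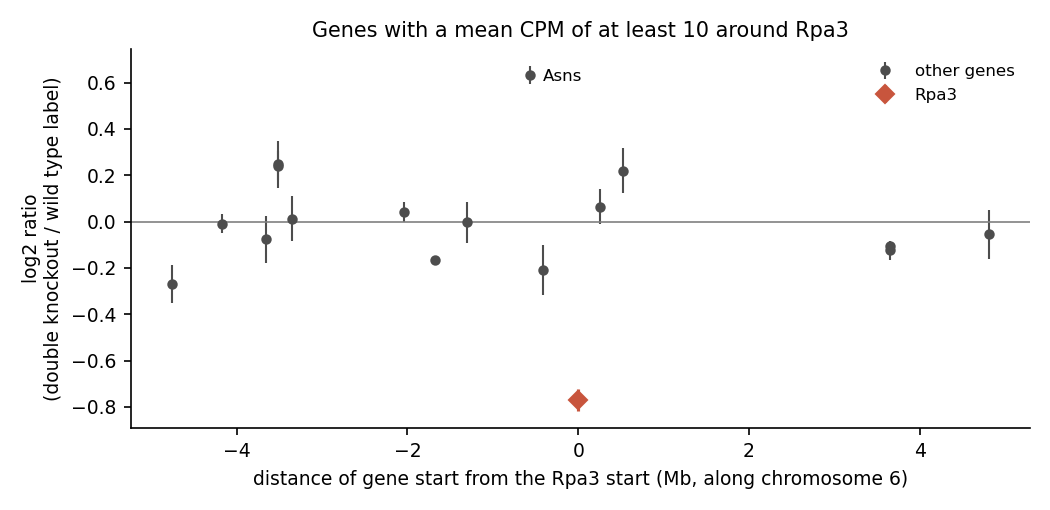
Log2 ratio between the libraries (y axis, with 95% counting intervals) of the genes above the minimum level within 5 Mb of Rpa3, against the distance of their start from the Rpa3 start (x axis, Mb). Rpa3 at -0.77 lies below the other 16 genes, which run from -0.27 to 0.63.

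Genes that work with the complex were compared in 12 lists grouped by role. The lists held 132 genes, of which 131 were among the features and 118 passed the minimum level. Of these, 4 were lower and 1 was higher by 0.25 or more, 3.39% and 0.847%, where 4.67% and 3.13% of all genes were. Their median log2 ratio was -0.05 and that of all genes -0.02. None of the 118 reached the ratio of Rpa3, since the lowest was -0.33. Nothing is read from this, because the low ratio of Rpa3 was known when it was taken.

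In the lists for preparing and starting replication, none of the 6 helicase, 11 licensing and 12 firing entries was past 0.25. The helicase genes Mcm2 to Mcm7 had a median of 0.01, with Mcm4 at -0.22 (-0.26 to -0.19), Mcm7 at 0.12 (0.10 to 0.14) and Mcm3 at 0.09 (0.06 to 0.11). Mcm2, Mcm5 and Mcm6 had ratios of -0.01, 0.03 and -0.02. The 11 genes of the licensing list had a median of -0.05, with the origin recognition genes Orc1 and Orc6 at -0.22 (-0.30 to -0.13) and -0.21 (-0.24 to -0.18). Mcm8, placed in this list by the grouping used here, was at -0.21 (-0.34 to -0.08), and its role in licensing was not examined. The 12 firing genes had a median of -0.07. Mtbp, an origin firing factor, was at -0.24 (-0.36 to -0.12), and Cdc7 and Dbf4, the kinase that activates the helicase and its partner, were at -0.18 (-0.25 to -0.11) and -0.14 (-0.17 to -0.10).

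Among genes that copy DNA, 1 polymerase gene was higher. Pold2, a regulatory subunit of DNA polymerase delta, stood at 66.1 and 86.5 CPM, a log2 ratio of 0.39 (0.34 to 0.44). It lies on chromosome 11, which was low in 17.8% and 5.86% of cells, and the part of this in its ratio was not tested. The other polymerase and primase genes were within 0.25, with Pole2 at -0.14 and Prim1 at -0.08, and the 11 had a median of -0.03. The 9 clamp genes had a median of 0.03, with the clamp itself, Pcna, at -0.24 (-0.27 to -0.22), its unloader Atad5 at -0.24 (-0.30 to -0.17) and Chtf18 at 0.12 (0.01 to 0.23). Of 8 genes of Okazaki fragment maturation, Rnaseh1, which removes RNA from hybrids, was lower at -0.29 (-0.37 to -0.22). Fen1, the flap nuclease, was at -0.18 and Rnaseh2a at 0.13, and the list had a median of -0.09.

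Among genes that act on coated DNA, the 7 fork protection genes had the lowest median of the 12 lists, -0.14, with none past 0.25. Zranb3 and Hltf, which remodel forks, were at -0.23 and -0.20, and Tipin, whose protein binds the complex, at -0.16 (-0.19 to -0.13). The 10 checkpoint genes had a median of -0.02, with Chek1 at -0.15, Atr at -0.09 and Rad17 at -0.08. Of 11 repair genes whose products bind the complex, Ercc5, a nuclease of nucleotide excision repair, was lower at -0.26 (-0.32 to -0.20). Wrn and Xpa were at -0.20 and -0.18, and the list had a median of -0.10. The 14 genes of other single-stranded DNA binding proteins had a median of -0.05 with none past 0.25. They include Ssbp1, which coats mitochondrial DNA, at -0.22 (-0.24 to -0.19), and Ssbp2 and Pura, both also at about that ratio (-0.23 and -0.22).

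The last lists hold genes that feed or switch on replication. The 9 genes of deoxynucleotide supply had a median of -0.08 with none past 0.25, and Dck, Rrm2 and Tk1 were at -0.21, -0.21 and 0.16. Of 10 E2F and RB genes, 2 were lower. These were Rb1, which restrains E2F, at -0.33 (-0.44 to -0.22) and E2f8, a repressor of the family, at -0.30 (-0.39 to -0.21). Tfdp1, the partner of E2F proteins, was at -0.22, and the list had a median of -0.05.

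The genes most like each subunit were taken by Pearson's r of log2(CPM + 1) over 12 sums, 6 clusters in each of the 2 libraries. Sums of 1 library share their depth and scaling, so these values are a description. For Rpa3 they were Alyref (0.92), Snrpf (0.92), Pstk (0.91), Cfap20 (0.91) and Tmem107 (0.87), with log2 ratios between the libraries of -0.26, -0.44, -0.17, -0.26 and -0.33. Rpa3 was lower under the dko label in each of the 6 clusters, so this choice favours genes with negative ratios. Nothing is read from their direction. For Rpa1 they were Hspa4 (0.94), Prxl2a (0.93), Sco1 (0.92), Amz2 (0.91) and Sod1 (0.89), and Hspa4, Sco1 and Amz2 lie on chromosome 11 with Rpa1. For Rpa2 they were Mrpl15 (0.91), Ube2l3 (0.90), Farsb (0.89), 2810004N23Rik (0.89) and Mutyh (0.88). Between subunits r was 0.20 for Rpa1 and Rpa3, -0.02 for Rpa1 and Rpa2 and -0.15 for Rpa2 and Rpa3.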

How the data were processed

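Single-cell RNA libraries of the 10x Genomics 3′ kit were counted by the submitters. The deposited matrices hold raw counts of UMIs, with every possible barcode listed and none filtered. Cell Ranger 8.0.1 is named per the labels' protocols, and STARsolo, STAR 2.7.9a, Seurat 5.1.0 and mm10 per the submitters' processing notes, without roles. Strand handling is not given in the sources used here.

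The subunits and gene lists were chosen with earlier results of these data known. Counts were summed per library or group of cells and scaled to CPM of the total of the same cells. Log2 ratios carry a pseudocount of 0.5. Sums have exact Poisson, ratios exact conditional and shares exact Clopper-Pearson 95% intervals. Differences of ratios use a normal approximation on log counts. With 1 library per genotype no test was made. Doublets were kept, and removing the highest Scrublet scores at 0.8% per 1000 cells was an alternative. Clusters came from scanpy 1.11.5 (2000 variable genes, 30 components, 15 neighbours, Leiden resolution 0.5). A cluster was named with at least 1 marker among its 10 leading genes and 3 markers at 1.5-fold, a rule set after the clusters were seen. Scaling alternatives used edgeR 4.0.16 and DESeq2 1.42.0, copies were sought with blastn 2.17.0, and promoters came from RefSeq (3 of 3 matched). The motifs were chosen after the sequences were seen. Calculations were tested on simulated data.

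Named genes are the subunits, Sp5 and Sp8, Mcm2 to Mcm7, genes among the 5 nearest on each side, the 3 largest ratios of each list and the 5 most similar genes of each subunit. Umad1, below the minimum level, Gm6195 and the leading genes of clusters were named after their values were seen.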

Additional observations from a re-analysis of the deposited data

How the results depend on the processing

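Over 99 alternative values of the subunit ratios in all, Mcm-high and Mcm-low cells, 97 stayed within the counting interval of the reported value. Leaving out barcodes found in both libraries and leaving out cluster 4 were added after seeing the data. The Rpa3 log2 ratio was below 0 in 33 of 33, from -0.83 to -0.70. With equal cluster shares it moved to -0.83, and that of Rpa1 changed sign from 0.05 to -0.011. The Rpa2 ratio in Mcm-high cells also changed sign, from -0.04 to 0.03, when the Mcm share was taken after thinning. This stayed within its counting interval, which held 0. At a resolution of 1.0 the lowest Rpa3 ratio among clusters was -1.004 (-1.13 to -0.88). TMM scaling moved every ratio in all cells by 0.029 and median-of-ratios scaling by 0.017. With all UMIs, cells with a UMI made up 60.4% and 56.7% for Rpa1, 38.6% and 34.0% for Rpa2, and 66.1% and 42.8% for Rpa3, in the libraries labelled WT and dko. At a minimum mean CPM of 1, the listed replication genes higher by 0.25 or more went from 1 to 2. The genes lower and higher by that much went from 355 and 238 to 1103 and 707, and to 5003 and 4131 with no minimum, where ratios rest on few UMIs. The cause of the other changes was not tested. No paired analysis was possible because each genotype has 1 library. Small sums limit the precision: the Rpa3 interval ran from -1.08 to 0.17 in G1 cells (55 and 39 UMIs) and from -0.97 to -0.18 in cluster 5 (153 and 86 UMIs).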

Other observations

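The level of Rpa2 varied with the depth of the cells more than that of the other subunits. With cells of both libraries cut into 4 groups of equal size by UMI total, Rpa2 stood at 52.1, 57.0, 49.6 and 39.2 CPM from the shallowest to the deepest group of the library labelled WT. In the library labelled dko it stood at 55.6, 51.4, 40.3 and 41.8 CPM. The log2 ratio between the libraries was 0.09 (-0.08 to 0.26), -0.15 (-0.27 to -0.03), -0.30 (-0.42 to -0.18) and 0.09 (-0.02 to 0.20), so it was near 0 in all cells but not in each group. Rpa3 stood at 104.2 to 108.1 CPM and at 58.9 to 66.3 CPM over the same groups, with ratios from -0.88 to -0.65. Rpa1 had ratios of 0.27 (0.14 to 0.41), 0.09, -0.06 and 0.03. The part of cell cycle or cell state in these values was not tested.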
